A study of Mus musculus with 4 samples.

Results

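Muscle satellite cells, the stem cells of skeletal muscle, made up 3252 of the 4872 cells (66.7%, exact 95% binomial interval 65.4 to 68.1%) in a droplet single-cell RNA library of mouse Achilles tendon. The library came from the line labelled Prox1 eGFP, 7 days after a treatment labelled B/T, an abbreviation that the labels do not expand. It was 1 of 4 libraries with 19003 cells in all, each pooled from 5 tendons. The others were Prox1 eGFP at day 0, labelled as not treated, Prox1 eGFP at day 21 after B/T, and Vegfc CRE at day 7 after B/T. Prox1 is a transcription factor best known from lymphatic endothelium, eGFP is a fluorescent protein, Vegfc is a lymphatic growth factor and CRE is a recombinase. The protocol describes digestion of the tissue with collagenase and dispase and flow sorting for Prox1, but the cell type label of every library reads unsorted, so a sort may have set the shares of cells given here. Ages, sexes and the number of animals behind each pool are not given in the labels, and each group was 1 library, so no difference below has a replicate check.

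A barcode counted as a satellite cell when it had at least 500 genes, at least 1000 unique molecular identifiers (UMIs, each a counted RNA molecule) and under 15% mitochondrial UMIs, at least 1 Pax7 UMI, at least 3 UMIs of Pax7, Myf5 and Chrdl2 together, no UMI of the endothelial genes Pecam1 and Cdh5 or the leukocyte gene Ptprc, and under 5% of its UMIs from 5 mature muscle genes. These counts chose the cells, so the levels of these genes describe the choice and test nothing. Of the 4872 cells of the day 7 library, 3535 had a Pax7 UMI, 3408 of those reached the sum of 3, 147 were then lost to Pecam1 or Cdh5, 5 to Ptprc and 4 to muscle genes. Just inside the sum were 123 cells with exactly 3 UMIs, in which Asb5, a gene the rule did not use, stood at 251 CPM (UMIs of the gene per 1e6 UMIs). Just outside were 71 cells with 2, in which Asb5 stood at 253 CPM. A further 99 cells had the sum but no Pax7 UMI (Asb5 214.9 CPM), and 146 failed only by an endothelial UMI. The satellite cells had a median of 7844.5 UMIs (1215 to 46184) and 2420 genes. Of their barcodes, 2, 9 and 8 also occurred in the day 0, day 21 and Vegfc CRE libraries.

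Satellite cells lie under the basement membrane of muscle fibres and rest there until injury. Resting cells hold Pax7 and Notch targets. On activation they raise Myod1 and divide, and the cells that go on to form muscle raise Myog and fuse, while others return to rest and renew the pool.

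What did the day 7 cells hold of this sequence? The listed satellite markers were high and endothelial, leukocyte and tendon markers low, while a few fibroblast and mural genes were high as well. Genes of rest were present in the chosen cells, and genes of differentiation and division were rare. The rule required a Pax7 UMI and capped mature muscle genes, so differentiating cells without Pax7 were not counted. Below, a level is the CPM of all UMIs of a group of cells, and a share is the percent of cells with a UMI after each cell was thinned to 2000 UMIs, so that depth is equal. Counts of cells with Myog, Mymk, Mki67, Top2a, Dcn and Pdgfra, and their percents, are of unthinned cells. Free RNA in the droplets gives a low share of cells with a UMI of any abundant gene, so each share is set beside that of the 1010 endothelial barcodes of the same library (at least 3 UMIs of Pecam1 and Cdh5, no Ptprc), whose median was 19298.5 UMIs. All intervals cover counting error only.

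Pax7, the transcription factor that marks satellite cells, stood at 698 CPM in satellite cells and 12.4 CPM in endothelial barcodes, with thinned shares of 73.0% and 1.98%. Myf5, a muscle determination factor, stood at 568 against 11.9 CPM (61.1% and 2.48% of cells), and Chrdl2, a secreted relative of the BMP antagonist chordin, at 119 against 3.33 CPM. Of markers outside the rule, Asb5, an ankyrin repeat protein of muscle, stood at 252 against 5.59 CPM, and the adhesion molecule Cdh15 (M-cadherin) at 246 against 5.02 CPM, with shares of 38.0% and 0.694%. Asb5 and Cdh15 were thus high without being in the rule. The gene lists were chosen with earlier results of these data known, so this does not test the label. Sdc4, a heparan sulfate proteoglycan of the satellite cell surface, stood at 2315 against 70.8 CPM, Vcam1, an adhesion molecule, at 649 against 40.7 CPM, and the growth factor receptor Fgfr4 at 243 against 5.72 CPM. All 13 surface and structure genes listed stood at or above 20 CPM in satellite cells and 6 in endothelial barcodes, where 20.3% and 23.3% of all 27040 genes did. Met, the receptor for hepatocyte growth factor, was the only one of them lower than in endothelial barcodes (39.7 against 51.0 CPM).

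**Figure D1:**
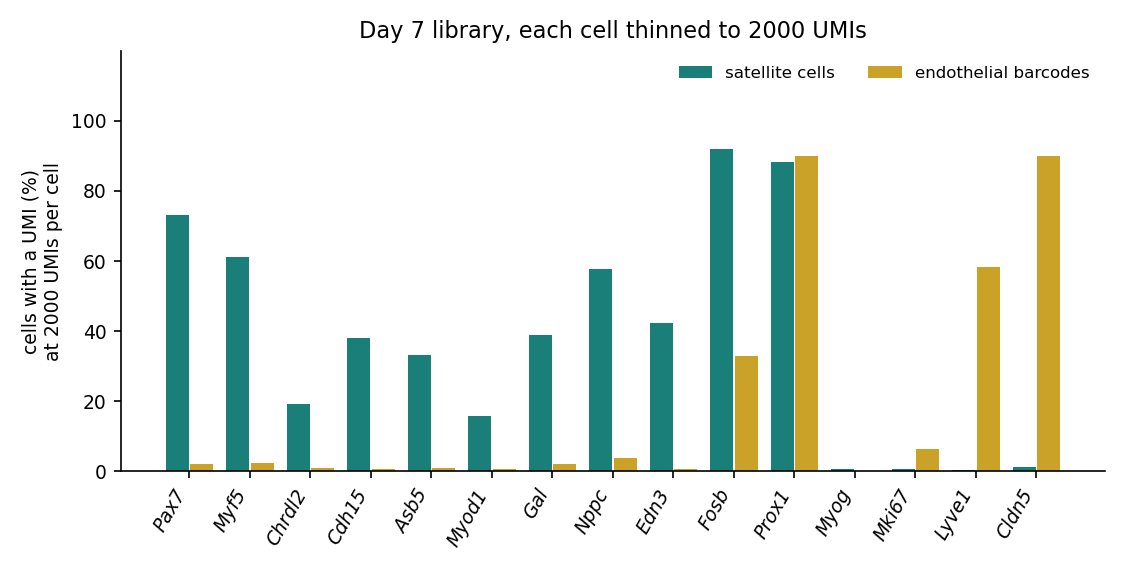
Percent of cells with a UMI of each gene (y axis) after every cell of the day 7 library was thinned to 2000 UMIs, in satellite cells (green) and endothelial barcodes (yellow). Pax7 was seen in 73.0% against 1.98% of cells and Cldn5, an endothelial junction gene, in 1.11% against 90.0%, whereas Prox1 was seen in 88.2% and 90.1%.

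Prox1, for which the protocol describes a sort, was found in 99.4% of the satellite cells (88.2% thinned). It stood at 1252 CPM (1239 to 1265) in them, 1694 CPM in endothelial barcodes and 117 CPM (89.9 to 150) in the 26 leukocyte barcodes. The Prox1 gene lies at chr1:190118035-190170714 of the mouse mm10 build. Of the 8 listed markers of lymphatic endothelium, 6 stood below 3 CPM in the satellite cells, with Lyve1 at 1.77 against 1279 CPM. The others were Pdpn, at 197 against 363 CPM, and Ccl21a, at 21.6 against 7828 CPM.

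All 19 listed genes of rest and Notch signalling stood at or above 20 CPM over all satellite cells, where 20.3% of all genes did. In endothelial barcodes 10 of them did, beside 23.3% of all genes. Calcr, the calcitonin receptor that keeps satellite cells at rest, stood at 78.1 CPM against 2.38 in endothelial barcodes, and Spry1, an inhibitor of growth factor signalling, at 533 against 25.2 CPM. Notch3 stood at 272 against 5.54 CPM and the Notch target Heyl at 180 against 5.85 CPM. Hes1, another Notch target (328 against 549 CPM), and the receptor Notch1 (80.7 against 125 CPM) were the 2 of the list that were lower than in endothelial barcodes. Cdkn1c, an inhibitor of the cell cycle, was in 9.90% of thinned cells.

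Myod1, the factor raised on activation, stood at 113 CPM (109 to 117) and was seen in 15.9% of thinned cells against 0.793% of endothelial barcodes. Genes of later steps were rare in these cells, which the rule had chosen by Pax7. Myog, which commits cells to differentiate, had a UMI in 46 of the 3252 cells (1.41%, 1.04 to 1.88%), and 20 of these cells held 738 of the 764 Myog UMIs. Mymk, a membrane protein needed for fusion, was in 12 cells, and Myh3, the embryonic myosin, had 1 UMI in all. The 46 cells with Myog carried Myod1 at 293 CPM and Pax7 at 368 CPM, against 113 and 698 CPM in all satellite cells. Without thinning, 65.2% of the cells with Myog and 36.3% of all satellite cells had a Myod1 UMI. The cells with Myog were deeper, with a median of 13416 UMIs against 7844.5.

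Division was rare as well. Mki67, a marker of cycling cells, was found in 58 cells (1.78%, 1.36 to 2.30%) and Top2a, a topoisomerase of dividing cells, in 42 (1.29%). The 17 proliferation genes together stood at 156 CPM in satellite cells and 1208 CPM in endothelial barcodes. Mature sarcomere genes summed to 357 CPM in satellite cells and 1221 CPM in endothelial barcodes, but the rule capped 5 of them in the satellite cells, so the levels are not compared.

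Among markers of other cells, the 7 pan-endothelial genes summed to 16.5 CPM against 5299 in endothelial barcodes, the 7 leukocyte genes to 3.75 CPM, the 6 tenocyte genes to 12.8 CPM with Fmod and Kera at 0 UMIs, and the 4 haemoglobin genes to 0.531 CPM. Without thinning, 96.6% of satellite cells and 44.8% of endothelial barcodes had a UMI of the fibroblast list. The list summed to 911 CPM in satellite cells, above the 571 CPM of the endothelial barcodes. Of this sum 566 CPM were the collagen Col3a1 (79.2 in endothelial barcodes) and 279 the matrix protein Dpt (6.93), while Pdgfra, which defines the fibroblast lineage, had 0 UMIs. The mural list reached 177 against 58.9 CPM, of which Acta2 (smooth muscle actin) made up 167 and 28.9 CPM.

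Transcripts of 3 peptide hormones were abundant in the satellite cells and those of most of their listed receptors were close to 0. Nppc, the precursor of C-type natriuretic peptide, stood at 1521 CPM (1506 to 1535) with a UMI in 57.9% of thinned cells against 3.87% of endothelial barcodes. Gal, the precursor of the neuropeptide galanin, stood at 613 CPM (604 to 622), in 38.9% against 2.18% of cells. Edn3, endothelin 3, stood at 287 CPM (281 to 293), in 42.2% against 0.793%.

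The galanin receptor gene Galr1 had 0 UMIs among the 28229178 of the satellite cells and Galr2 had 7. The endothelin receptor Ednrb stood at 0.425 CPM (12 UMIs) in satellite cells and 136 CPM in endothelial barcodes, and Ednra at 0.992 CPM in satellite cells. Ece1, which cuts endothelin precursors to their active form, stood at 33.4 CPM against 508 in endothelial barcodes. Npr2, the signalling receptor for C-type natriuretic peptide, was the only listed receptor above 5 CPM, at 15.6 CPM (14.2 to 17.1) in satellite cells and 19.6 CPM in endothelial barcodes. Galr3 was not analysed here.

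Among chemokines, the neutrophil attractant Cxcl1 stood at 1089 CPM, against 60.2 in endothelial barcodes, and was seen in 49.97% of thinned cells. Ccl2, which attracts monocytes, stood at 87.4 CPM, below the 183 CPM of the endothelial barcodes, and Il6 at 22.0 CPM against 2.47. Growth factor genes included Bmp4 (256 CPM), Tgfb2 (139 CPM), Igf2 (115 CPM) and Igf1 (104 CPM). Vegfc stood at 8.93 CPM (7.86 to 10.1).

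Immediate early genes, which cells switch on within minutes of a stimulus and before making new protein, summed to 40851 CPM over 26 genes, against 7928 CPM in endothelial barcodes. Fos and Fosb, which pair with Jun proteins to form the AP-1 factor, stood at 8416 and 3922 CPM, against 1287 and 338 in endothelial barcodes. Jun stood at 4113 against 770 CPM and Jund at 6041 against 877 CPM. The heat shock chaperone Hspa1a was at 1655 against 123 CPM and the metallothionein Mt1 at 3659 against 127 CPM. Whether these transcripts arose in the tendon or during digestion cannot be told apart.

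How much did the cells differ among themselves? At 2000 UMIs per cell, pure sampling gives a variance close to the mean. Of 2734 genes with a mean of at least 0.1 UMI, 81.3% had a ratio of variance to mean under 1.2, the median was 1.06, and 89 genes reached 2. Gal ranked 7th with a ratio of 8.28, below Nppc with 9.23. Of the 15 highest genes, 4 were immediate early genes and 3 heat shock genes, and 13 were also among the 15 highest at 4000 UMIs. Fos had a ratio of 18.6, Mt1 of 11.8, Hspa1a of 11.7, Cxcl1 of 7.40, Cdkn1c of 6.93 and the binding protein Igfbp5 of 6.33. Fosb followed at rank 16 with 5.41. Myod1 (1.67), Myf5 (1.60), Prox1 (1.43), Pax7 (1.27) and Edn3 (1.24) lay much closer to 1. At an equal relative spread this ratio is larger for a more abundant gene, so these ranks do not order genes by relative spread. Mean UMIs per cell were 18.3 for Fos, 8.48 for Fosb, 0.614 for Edn3 and 0.222 for Myod1.

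Across the 3244 thinned cells, which share a library and a depth, Fos correlated with Jun (Pearson's r = 0.61) and with Egr1 (0.52), and Hspa1a with Hspb1 (0.35). Gal and Nppc correlated weakly (0.19) and Gal and Fos not (-0.01). Hspa1a and Hspa1b (0.73) are near-identical copies, so their counts may be split between them.

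The genes Myod1, Gal, Fosb and Edn3 were each used to sort the cells. Each of 3173 cells (79 were too shallow) was thinned to 4000 UMIs, which were dealt at random into sets A and B of 2000 UMIs each. A cell was positive with at least 1 UMI of the gene in set A, and all values come from set B, so that the UMIs that sorted a cell were not those measured. A gene with at least 100 UMIs in set B counted as apart when its level differed at least 1.5-fold, by size alone. In mm10, Myod1 lies at chr7:46376474-46379099, Gal at chr19:3409915-3414544, Fosb at chr7:19302696-19310051 and Edn3 at chr2:174760619-174784042.

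Gal split the cells sharply. Set A placed 1233 cells (38.9%, 37.2 to 40.6%) on the positive side, and these held 3.10 Gal UMIs per cell in set B against 0.245 in the others, a 12.6-fold difference (11.5 to 13.9). Cells with 0, 1, 2 to 4, 5 to 9, 10 to 19 and at least 20 Gal UMIs in set A had means of 0.245, 0.970, 2.17, 5.49, 12.3 and 23.6 in set B. The last of these bins held 23 cells and the first 1940. Gal thus ran from near 0 to a few cells at over 1% of their UMIs, with no gap between the bins.

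**Figure D2:**
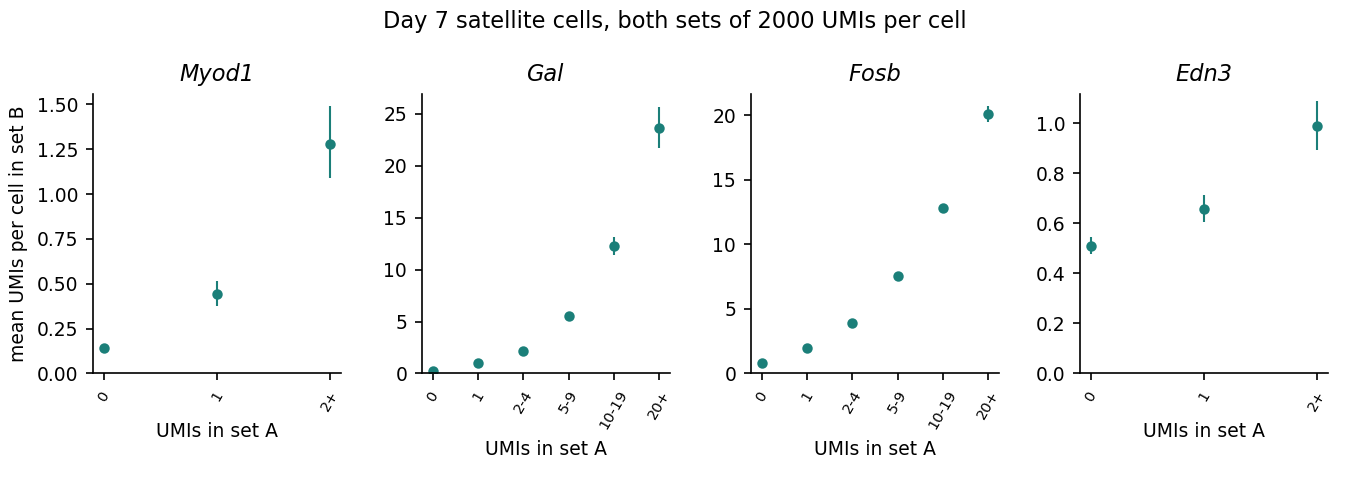
Mean UMIs per cell in set B (y axis, with 95% Poisson intervals) of each sorting gene, for day 7 satellite cells grouped by its UMIs in set A (x axis). Gal climbed from 0.245 to 23.6, Fosb from 0.805 to 20.1, Myod1 from 0.144 to 1.28 and Edn3 from 0.511 to 0.988.

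Between the sides of the Gal split, 185 of 6242 genes (2.96%) were at least 1.5-fold apart, 80 of them higher in Gal-positive cells (1.28%) and 105 lower (1.68%). Nppc was 1.97-fold higher (1.90 to 2.05), at 2378 against 1204 CPM, and rose from 2.41 UMIs per cell in the lowest Gal bin to 8.78 in the highest. Also higher were the transcription factor Foxc1 (3.28-fold), the surface protein Thy1 (2.93-fold), the hormone Erfe (erythroferrone, 2.15-fold), the muscle stress gene Ankrd1 (2.06-fold), Chrdl2 (1.78-fold, 1.54 to 2.04) and Ccl2 (1.77-fold). Lower were P2ry14, a receptor for UDP sugars (0.15 of the level in Gal-negative cells), the X-inactivation RNA Xist (0.17), the proteoglycan Gpc3 (0.19), the collagen gene Col1a2 (0.31), Cdkn1c (0.48), Acta2 (0.59) and Tgfb2 (0.60). Pax7, a gene of the rule, stood at 0.97 (0.91 to 1.03) of its level in Gal-negative cells. By Gal bin it had 1.44 UMIs per cell in the lowest, 1.09 at 10 to 19 Gal UMIs and 1.52 in the highest. None of 24 immediate early genes tested was 1.5-fold apart, with a median ratio of 1.02 beside 1.00 for all genes. With the UMIs dealt anew, 15 of the 16 genes at the ends of this split were 1.5-fold apart again, but only 70 of the 185 genes were (37.8% of these and 35.7% of the 196 of the second deal), so a gene near 1.5-fold often depended on the draw.

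Fosb was nearly everywhere but uneven in amount. Set A placed 2947 cells (92.9%) on the positive side, with 9.08 Fosb UMIs in set B against 0.805 in the 226 others, an 11.3-fold difference (9.75 to 13.1). The sides had similar median depths of 7898 and 8044 raw UMIs and median mitochondrial shares of 3.21% and 3.47%. Of 23 immediate early genes tested besides Fosb, 21 were at least 1.5-fold higher in Fosb-positive cells, where 12.6% of all genes were (787 of 6242), and none was 1.5-fold lower, where 8.06% of all genes were. Their median ratio was 1.94, beside 0.99 for all genes. Klf4, a zinc finger factor, was 4.998-fold higher (4.10 to 6.16), Klf2 6.07-fold, Jund 2.73-fold (2.58 to 2.90), Atf3, a stress-induced factor, 2.68-fold and Fos 2.55-fold (2.43 to 2.67). The metallothioneins Mt1 and Mt2 were 1.82-fold and 1.89-fold higher, and 3 of 12 heat shock genes passed 1.5-fold, with Hspa1a at 1.21. Several of the genes with the largest ratios had 1 to 4 UMIs on the negative side, such as Cxcl10 with 2, and are not described further.

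The 226 cells on the negative side, of which 42.0% still had a Fosb UMI in set B, were higher in other genes, which were among the 20.7% of genes apart in either direction. Cdkn1c stood at 0.21 (0.18 to 0.25) of its level there, with 87.4 CPM in Fosb-positive and 414 CPM in Fosb-negative cells. The microtubule regulator Stmn1 stood at 0.24, the creatine kinase Ckb at 0.30, Acta2 at 0.31, Gpc3 at 0.36, Txnip, an inhibitor of thioredoxin, at 0.41 and Myod1 at 0.63 (0.50 to 0.81). In cells grouped by Fosb from 0 to at least 20 UMIs, Myod1 fell from 0.341 to 0.146 UMIs per cell and Cdkn1c from 0.827 to 0.0796, while Fos rose from 7.46 to 24.98. Because the split at 1 UMI gave sides of very unequal size, the cells were also divided at the median of 7 Fosb UMIs, an alternative chosen after seeing the data. Then 6 of the 23 immediate early genes passed 1.5-fold, and none was as much lower, where 2.68% and 1.62% of all genes were (4.29% in either direction), with a median ratio of 1.38. Klf4 (2.48-fold), Klf2, Atf3, Jund, Maff and Nr4a2 were the 6, and Cdkn1c stood at 0.21 again. No heat shock gene was 1.5-fold higher in that division, and Hspa1a stood at 0.67 and Hspa1b at 0.65, the other side of 1 from the first split. Of the genes at the ends of the first split, 12 of 16 were apart when the UMIs were dealt anew, and of all 1290 genes apart 447 were (34.7%).

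**Figure D3:**
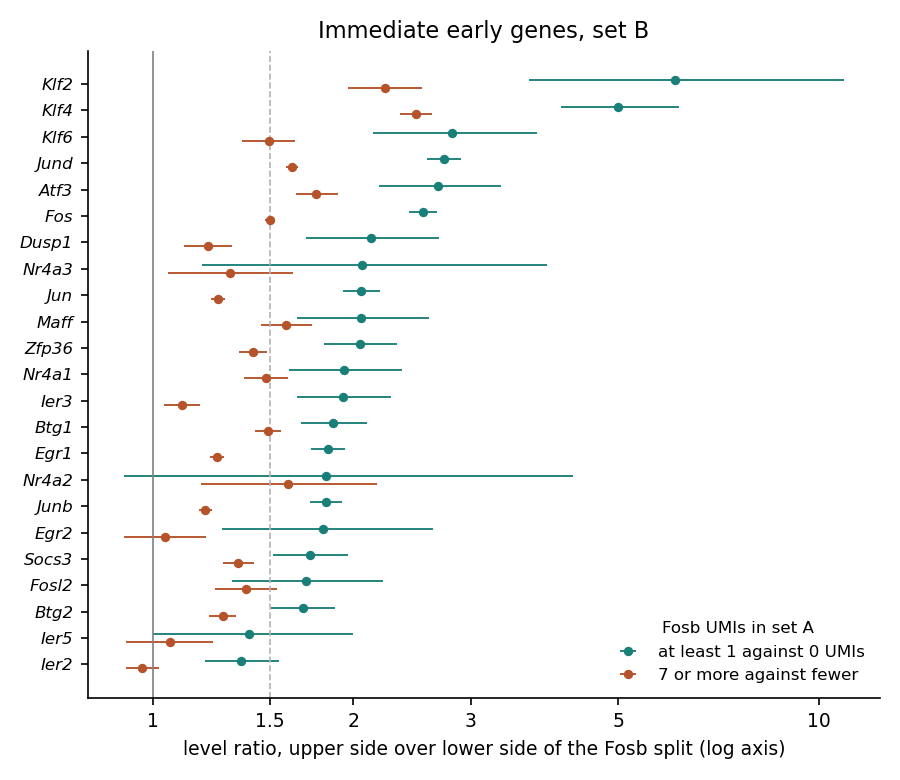
Ratio of the set B level of each immediate early gene (log axis, 95% counting intervals) between the upper and lower side of the Fosb split, for cells divided at 1 UMI (green) and at 7 UMIs (brown) of Fosb in set A. The dashed line marks 1.5-fold, which 21 and 6 of the 23 genes passed, and the small lower side at 1 UMI makes the green intervals wide.

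Because immediate early genes moved together, the 250 bases upstream of their starts were read from the RefSeq promoter table (GRCm38.p6), which held 22 of the 26 genes. The AP-1 site TGANTCA was in none of the 22 genes on either strand, where 7.82% of all 27025 genes in the table have it. The full cAMP response element TGACGTCA was in 3 of 22 (13.6%, all genes 1.77%), namely Btg2, Dusp1 and Maff. The serum response motif known as the CArG box was in 2 of 22 (9.09%, all genes 1.62%), Egr2 and Zfp36. The shorter TGACG, which lies within TGACGTCA and was searched after the windows had been seen, was in 14 of 22 genes (63.6%, all genes 19.8%). The windows of Fosb, the gene that sorted the cells, and of Fos, the most abundant gene of the AP-1 family here, are shown 5′ to 3′ on the gene's strand with TGACG in capitals. The Fosb window is chr7:19310046-19310295 on the minus strand and the Fos window chr12:85473640-85473889 on the plus strand.
Fosb: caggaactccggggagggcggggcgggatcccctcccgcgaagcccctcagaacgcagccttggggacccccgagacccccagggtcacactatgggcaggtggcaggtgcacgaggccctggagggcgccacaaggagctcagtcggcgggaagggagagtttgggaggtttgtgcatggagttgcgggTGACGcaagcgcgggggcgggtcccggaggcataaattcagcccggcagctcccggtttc
Fos: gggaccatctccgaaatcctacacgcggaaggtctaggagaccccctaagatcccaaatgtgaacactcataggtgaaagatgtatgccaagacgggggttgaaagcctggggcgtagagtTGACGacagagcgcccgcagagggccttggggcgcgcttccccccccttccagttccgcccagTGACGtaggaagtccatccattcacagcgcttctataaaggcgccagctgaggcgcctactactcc
Fosb held 1 such run and Fos 2, counting both strands. These matches describe letters in a window and were not measured as binding.

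Myod1 divided the cells into 498 positive (15.7%) and 2675 negative cells, and the difference held in set B, at 0.659 against 0.144 UMIs per cell, 4.56-fold (3.93 to 5.30). Cells with at least 2 Myod1 UMIs in set A had 1.28 in set B. Across 0, 1 and at least 2 Myod1 UMIs, Gal fell from 1.43 to 1.05 and 0.578 UMIs per cell and Fosb from 8.67 to 7.87 and 6.63, while Pax7 stood at 1.41, 1.46 and 1.58. A Gal UMI in set B was found in 32.1% of Myod1-positive and 40.1% of Myod1-negative cells. The size of the Gal difference depended on the draw, since its log2 ratio was -0.63 here, -0.38 when the UMIs were dealt anew and -0.08 with sets of 1000 UMIs.

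Of 6242 genes, 296 (4.74%) were 1.5-fold apart in the Myod1 split, 1.65% higher and 3.09% lower, but only 40 of them were again apart when the UMIs were dealt anew (13.5%), and of the 16 genes at its ends only Stmn1, 2.60-fold higher with Myod1, and Ctnnal1, lower with it. The rest of that list is not reported. No immediate early gene of 24 and no surface and structure gene of 13 was apart. The 3 differentiation genes tested had a median ratio of 1.41, beside 1.00 for all genes, and none was 1.5-fold apart. Chrna1, a subunit of the muscle acetylcholine receptor, stood at 1.49 and Tnnt1 at 1.41, but Cdkn1a at 0.85 (0.73 to 0.99).

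Edn3 split the cells far less sharply than Gal, though it stood lower in cells with Xist, as described below. The 1287 cells with Edn3 in set A (40.6%) held 0.764 UMIs in set B and the others 0.511, a 1.496-fold difference (1.37 to 1.64) where Gal had 12.6-fold. Only 1.14% of genes (71) were 1.5-fold apart, 0.561% higher and 0.577% lower, and 7 of them were so again in the second deal. Acta2 was lower with Edn3 in both (0.54, 0.45 to 0.64).

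How often Myod1, Gal and Edn3 were found in the same cell was set against the product of their shares. The ratio of observed to product was 0.827 for Myod1 and Gal, from 160 cells with both, 0.875 for Myod1 and Edn3 and 1.10 for Gal and Edn3. Fosb was in nearly all cells, so its shares say little, and its amount is the better measure. Gal was 1.60-fold higher (1.38 to 1.85) in Fosb-positive cells, and it went from 0.872 UMIs per cell in the lowest Fosb bin to 1.90 in the highest. The X-inactivation RNA Xist fell from 0.522 to 0.106 UMIs per cell over the same Fosb bins, and from 0.435 to 0.183 over the Edn3 bins. Gal was low in cells with Xist, as described below. The part of this in the links of Gal with Fosb and Edn3 was not tested.

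Did the cells come from animals of different sex? The low Xist in Gal-positive cells led to a division that was chosen after seeing the data. Xist is made by the inactive X chromosome of female cells, and Ddx3y, Eif2s3y, Uty and Kdm5d are genes of the Y chromosome. Of the day 7 satellite cells, 508 (15.6%) had Xist UMIs only and are called Xist cells, 2134 (65.6%) had Y-linked UMIs only and are called Y-linked cells, 54 had both and 556 had neither. At day 21 the mix was reversed, with 2040 Xist cells (80.8%) and 165 Y-linked cells (6.53%) among 2526 satellite cells. The endothelial barcodes showed the same turn, from 22.4% to 86.9% Xist only. The labels give no animals, so the sex of a cell and the animal it came from cannot be told apart, and each side may rest on few animals. Median depths at day 7 were 9344.5 UMIs in Xist cells, 7755 in Y-linked cells, 13020.5 in cells with both and 6923 in cells with neither.

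Gal stood at 85.0 CPM (77.1 to 93.5) in Xist cells, 724 CPM (712 to 736) in Y-linked cells and 811 CPM in cells with neither at day 7, so that it was 8.51-fold higher (7.73 to 9.40) in Y-linked than in Xist cells. At day 21 it stood at 128 and 1183 CPM, 9.25-fold apart (8.65 to 9.90). The difference was thus of like size in both libraries, which were made from separate pools. In the 7 Xist cells and 6 Y-linked cells of Vegfc CRE, Gal had 1 and 14 UMIs, too few for a size. Nppc stood at 663 and 1653 CPM at day 7 (2.49-fold) and 976 and 2703 CPM at day 21 (2.77-fold), and Edn3 at 155 and 314 CPM (2.02-fold) and then 128 and 242 CPM (1.88-fold).

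Myod1 stood at 112 CPM in Xist cells and 115 in Y-linked cells at day 7, with overlapping intervals (1.03-fold, 0.94 to 1.13), and Pax7 at 643 and 715 CPM (1.11-fold). Another scaling of the sums (TMM, a method that centres most genes at no change) takes 0.15 off each of these log2 ratios, which leaves Pax7 level and Myod1 slightly below 1. Fosb was 1.51-fold higher in Y-linked cells at day 7 and 1.02-fold at day 21.

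**Figure D4:**
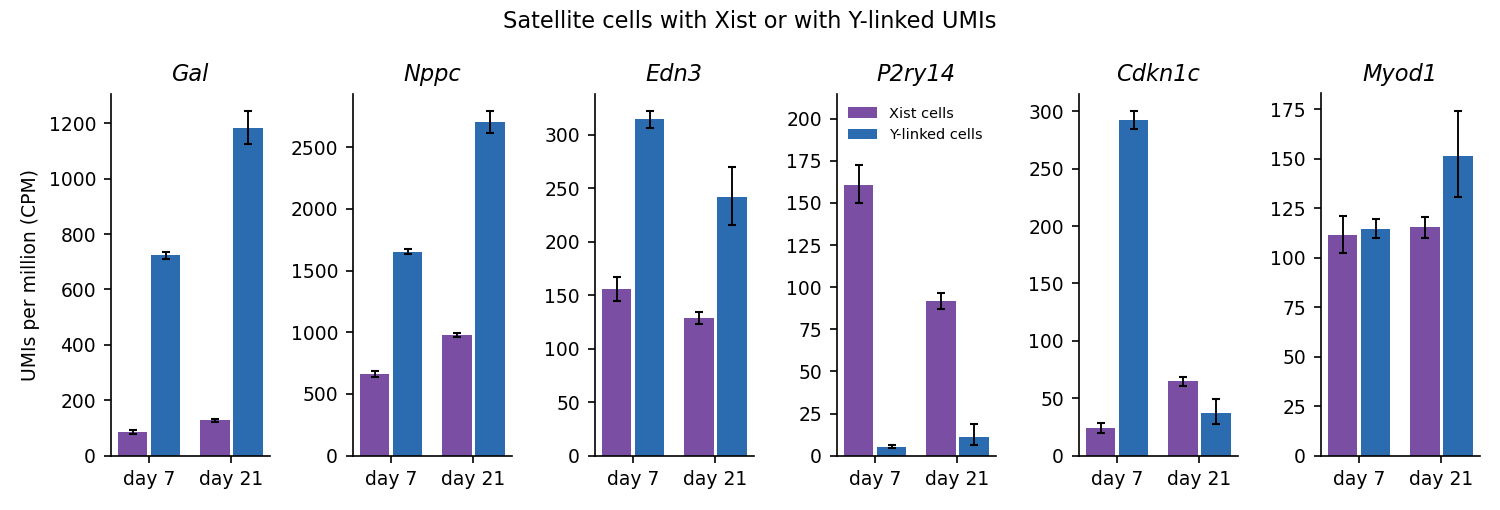
CPM (y axis, bars from 0, 95% Poisson intervals) of 6 genes in satellite cells with Xist UMIs only (purple) and with Y-linked UMIs only (blue) at days 7 and 21. Gal, Nppc and Edn3 were higher and P2ry14 lower in Y-linked cells on both days, Cdkn1c changed sides between them and Myod1 differed little at day 7.

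Of 8116 genes with at least 200 UMIs, 226 (2.78%) were at least 2-fold higher in Y-linked cells at day 7 and 29 (0.357%) lower. In the endothelial barcodes of the same library the shares were 0.758% and 0.14% of 8580 genes. At day 21, 1.92% of 6676 genes were 2-fold higher in Y-linked cells and 1.54% lower. Counts of higher and lower genes are not comparable, because the sides were unequal, with 2134 Y-linked and 508 Xist cells at day 7. A gene reached the minimum of 200 UMIs at a lower level when it was high on the larger side. TMM scaling would also take 0.15 off each day 7 log2 ratio, and these counts do not include it. Of the 116 higher genes that could be read on both days, 51 (43.97%) were again 2-fold higher at day 21, where 1.65% of genes were. Of 26 lower genes, 18 (69.2%) were again lower, beside 1.203%.

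Among genes lower in Y-linked cells, P2ry14 stood at 5.29 CPM (98 UMIs) against 161 CPM in Xist cells at day 7, 30.4-fold apart, and at 11.1 against 92.0 CPM at day 21. The annexin Anxa3 stood at 8.85 against 88.2 CPM and then 6.34 against 72.7 CPM, though in endothelial barcodes it was level (25.9 and 22.7 CPM). The prostaglandin transporter Slco2a1 stood at 10.2 against 68.7 CPM, and the calcium-binding protein S100a4 at 52.4 against 208 CPM. Ksr2, a scaffold of the Ras pathway, had 5 UMIs in Y-linked cells and 221 in Xist cells, and Grin2a, a glutamate receptor subunit, 17 and 200. None of these genes lies on the X chromosome.

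Higher in Y-linked cells at day 7 were Igf1 (4.92-fold), Erfe (5.54-fold), the muscle repressor Msc (3.89-fold) and Ccl2 (3.57-fold), which at day 21 were 2.57-fold, 2.59-fold, 3.39-fold and 4.53-fold higher. Other genes changed sides. Cdkn1c stood at 24.1 CPM in Xist cells and 293 in Y-linked cells at day 7, but at 64.7 and 37.2 CPM at day 21. At day 7, 10 cells held 34.6% of the Cdkn1c UMIs. Col1a2 stood at 7.24 and 51.8 CPM, then at 175 and 16.6 CPM. At day 21, 20 cells held 83.7% of the UMIs of its partner chain Col1a1, and at day 7, 10 cells held 28.1% of those of Col1a2. Myog had 4 and 554 UMIs at day 7, of which 10 cells held 93.5%, so a few cells carry its difference.

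The Gal split did not merely separate these sides. Within Y-linked cells 44.8% were Gal-positive and within Xist cells 9.18%, and the set B ratio between Gal-positive and Gal-negative cells was 10.9 in each (9.77 to 12.3 and 6.93 to 17.1). Among Y-linked cells alone, 3.03% of 4957 genes were 1.5-fold apart (1.11% higher and 1.92% lower with Gal). There Foxc1 was 4.28-fold higher with Gal, Nppc 1.80-fold (1.72 to 1.88), Erfe 1.85-fold and Chrdl2 1.68-fold, while Gpc3 stood at 0.13, Cdkn1c at 0.37 and Acta2 at 0.49. Among Xist cells alone Cdkn1c had 0 UMIs in 46 Gal-positive and 24 UMIs in 455 Gal-negative cells, too few for a fold. Shares of Myod1-positive cells were 15.7% and 14.6% in Y-linked and Xist cells, of Edn3-positive cells 43.0% and 28.3%, and of Fosb-positive cells 93.3% and 90.0%. Within Y-linked cells all 23 immediate early genes tested were 1.5-fold higher with Fosb, where 15.6% of genes were and 9.72% were lower.

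How did the day 7 cells compare with satellite cells at day 21? The same rule gave 2526 of 6384 cells (39.6%, 38.4 to 40.8%) at day 21, 17 of 7057 (0.241%) in Vegfc CRE and 0 of 690 at day 0, which allows a share of up to 0.435% there (3 counts of 690). Vegfc CRE and day 0 had too few for comparison. Over all satellite cells, 610 of 12889 genes were at least 2-fold higher at day 21 (4.73%) and 1102 lower (8.55%), by size alone. The median ratio of all genes was 0.87 (log2 -0.20), and TMM scaling adds 0.17 to every log2 ratio.

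For Gal the pooled comparison and the comparison within each kind of cell had opposite signs. Over all satellite cells Gal stood at 613 CPM at day 7 and 253 CPM at day 21, a log2 ratio of -1.28. Within Xist cells it went from 85.0 to 128 CPM, a log2 ratio of 0.59, and within Y-linked cells from 724 to 1183 CPM, a log2 ratio of 0.71. Nppc behaved alike, at -0.36 pooled, 0.56 in Xist cells and 0.71 in Y-linked cells. Edn3 kept its sign but not its size, at -1.03, -0.28 and -0.38.

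**Figure D5:**
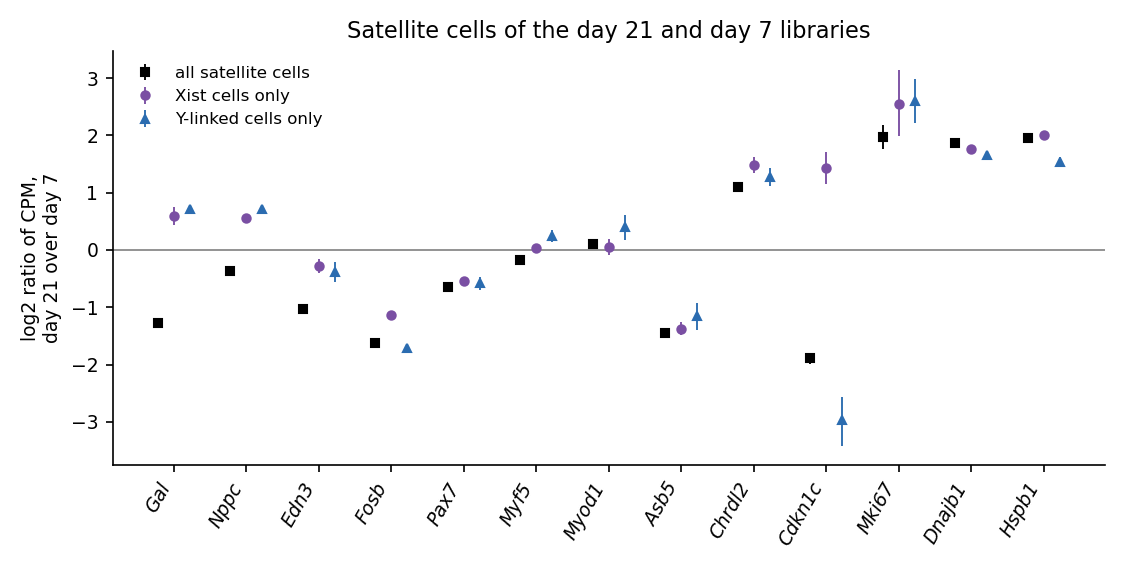
Log2 ratio of CPM at day 21 over day 7 (y axis, 95% counting intervals) of named genes in all satellite cells (squares), Xist cells (circles) and Y-linked cells (triangles). Gal and Nppc lie below 0 for all cells and above 0 within each kind, Cdkn1c differs between the kinds, and Fosb, Pax7 and Asb5 lie below 0 in all 3.

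Many genes that were 2-fold apart in the pool were also 2-fold apart within a kind of cell, but these cells are part of the pool. Xist cells were 2040 of the 2526 satellite cells at day 21, and Y-linked cells 2134 of the 3252 at day 7. The same UMIs enter both comparisons, so the overlaps are in part built in. The shares of all genes given beside them are not a baseline for that. Of genes 2-fold lower at day 21 in the pool and readable within Xist cells, 324 of 690 (47.0%) were also 2-fold lower there, where 4.01% of all genes were, and of 517 higher genes 434 (83.9%) were also higher, beside 6.39%. On the opposite side of 1 were 35 and 20 of them. Within Y-linked cells 416 of 898 lower genes (46.3%, beside 10.5%) and 245 of 317 higher genes (77.3%, beside 4.66%) were again 2-fold apart. Fosb had a log2 ratio of -1.61 in all cells, -1.14 in Xist cells and -1.71 in Y-linked cells. Asb5 stood at 0.37 of its day 7 level in all cells, 0.38 in Xist cells and 0.45 in Y-linked cells, and Pax7, a gene of the rule, at 0.64, 0.69 and 0.67. Chrdl2, also of the rule, was 2.15-fold, 2.79-fold and 2.43-fold higher at day 21. Calcr stood at 0.43 of its day 7 level in all cells, and at 0.65 and 0.48 within Xist and Y-linked cells. The stress factor Atf3 was 2.27-fold higher at day 21, although Fosb was lower, and Myod1 was at 1.08 of its day 7 level, which turns just below 1 (log2 -0.048) when cells need a sum of 5 UMIs of the marker genes.

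The proliferation list was higher at day 21, with 12 of 17 genes past 2-fold in all cells (median ratio 3.99), 14 in Xist cells (6.49) and 17 in Y-linked cells (6.07), where 4.66% of all genes were higher, beside medians of 0.87, 0.96 and 0.92 for all genes. Mki67 stood at 9.56 CPM at day 7 and 37.5 at day 21, and the cells with a UMI went from 58 (1.78%) to 82 (3.25%, 2.59 to 4.01%). At day 21, 20 cells held 489 of its 725 UMIs and 789 of the 1255 UMIs of Top2a, so a few cells carry these folds. The chaperones Hspb1 (3.88-fold), Dnajb1 (3.65-fold) and Hsph1 (2.80-fold) were higher at day 21, which were 3 of 12 heat shock genes, and none was 2-fold lower. Mature sarcomere genes were 2-fold lower in 11 of 13 over all cells, where 8.55% of all genes were. Within Y-linked cells 3 of 12 were, beside 10.5% of all genes. The rule capped 5 of the listed genes on both days, so these counts also reflect the choice of cells.

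Fibroblast markers were 2-fold higher in 7 of 9, tenocyte markers in 4 of 6 and leukocyte markers in 5 of 6 at day 21, where 4.73% of all genes were. Dcn, a matrix proteoglycan of fibroblasts, was found in 87 satellite cells at day 7 (2.68%) and 337 at day 21 (13.3%), where 20 cells held 2207 of its 2724 UMIs. The tendon gene Tnmd had 129 of its 130 UMIs at day 21 in 20 cells, and Pdgfra was in 10 cells. Within Y-linked cells 1 of 6 fibroblast markers tested was higher, where 4.66% of all genes were. The part of such cells in the differences between days was not tested. Among the 16 genes with the largest ratios, Ptp4a1, Gm45902, Rnasek, Tonsl, Lrrc24 and Rps6ka4 overlap a gene that only one of the libraries' gene lists holds, and Srp54a and Srp54c are near-identical copies, and the part of the gene lists in their differences was not tested. Aspn, Pi16 and Tnmd, genes of connective tissue, were among the highest, and the chemokine Cxcl5, at 184 UMIs at day 7 and 2 at day 21, among the lowest.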

How the data were processed

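Raw UMI counts per gene and barcode were deposited by the authors for 4 libraries, made with Cell Ranger 5.0.1 on build mm10 per the submitters' processing notes. The satellite cells and the gene lists were chosen with earlier results of these data known. The day 7 file lists 27998 genes and the others 32285, so days were compared over the 27040 genes with a shared identifier. Cells were thinned by drawing UMIs without replacement. Levels are summed UMIs per 1e6 UMIs with exact Poisson intervals, ratios have exact binomial intervals (a side at 0 UMIs was set to 3, and no fold was given where this bound crossed 1) and shares Clopper-Pearson intervals, all at 95%. With 1 library per group no test between groups was possible. No doublet caller was run, and leaving out the 4% of cells with the most UMIs was an alternative. Named genes were, in each list, up to 6 members with the most UMIs or the largest ratio, and the 15 most variable genes. Also named were the 8 highest and 8 lowest ratios of each split and of the days, among genes with at least 100 UMIs. Between Y-linked and Xist cells the 12 highest and 12 lowest were named, among genes with at least 200 UMIs. Others were singled out after their values were seen. The division by Xist and Y-linked genes and the Fosb division at the median were also chosen after seeing the data. Python 3.11.15, numpy 2.4.6, scipy 1.17.1, pandas 2.3.3, matplotlib 3.10.9 and edgeR 4.0.16 (TMM factors only) were used. The splitting of counts was tested on simulated data.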

Additional observations from a re-analysis of the deposited data

How the results depend on the processing

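Of 253 values computed under the alternatives for 35 results, 149 stayed within the stated bounds, 99 moved and 5 changed sign. Splits within Xist or Y-linked cells, the Fosb division at the median and the Y-linked against Xist comparison were added after seeing the data. Sets of 1000 UMIs gave 473, 502 and 112 genes apart in the Myod1, Fosb and Edn3 splits (296, 1290 and 71 as reported), with own log2 ratios of 3.12 for Gal and 2.37 for Fosb (3.66 and 3.496 as reported). Sets of 3000 gave 196 genes for Myod1 and ratios of 3.92 for Gal and 4.06 for Fosb. With at least 2 UMIs against 0, the own log2 ratios of Myod1, Gal and Edn3 were 3.15, 4.21 and 0.95, with 1243, 290 and 220 genes apart. With a minimum of 20 UMIs 1568, 1108, 3073 and 826 genes were apart for Myod1, Gal, Fosb and Edn3. Dividing Fosb at the median gave a ratio of 1.71, 268 genes and 6 immediate early genes.

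Within Xist cells the own log2 ratios of Gal, Fosb and Edn3 were 3.44, 3.05 and 0.74, the genes apart for Myod1, Fosb and Edn3 were 111, 234 and 35 and 13 immediate early genes passed. Cdkn1c in the Gal split had no value there, with 0 UMIs in Gal-positive cells. Within Y-linked cells the Gal ratio was 3.45. Fewer genes reached the minimum in these smaller sets of cells. Between Y-linked and Xist cells the log2 ratio of Gal was 2.94 with TMM scaling and 3.27 without the deepest 4% of cells (3.09 as reported), and 100 and 18 genes were higher and lower at 4000 UMIs per cell.

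For day 21 against day 7, Gal had log2 ratios of -1.10 with TMM, -1.35 at 4000 UMIs per cell and -1.19 with a marker sum of at least 5, where Myod1 turned to -0.048. Within Xist cells Gal was 0.59 and Nppc 0.56, and within Y-linked cells both were 0.71. Genes 2-fold higher and lower were 329 and 631 with a minimum of 100 UMIs, 1051 and 1767 with 1 UMI in each library, 403 higher at 4000 UMIs and 468 lower within Xist cells. The cause of these shifts was not tested beyond what each setting changes by construction. No paired analysis was possible because each group was 1 library. Receptors such as Galr1 and Galr2 were at or near 0 UMIs, so a low level in a few cells was not detectable at this depth.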

Other observations

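Of genes known to be imprinted, that is read from only one parent's copy, 4 are given here. They were picked after their values had been seen and no count over other imprinted genes was made, so they say nothing of imprinted genes as a group. At day 7 Mest stood at 15.1 CPM in Xist cells and 119 CPM in Y-linked cells (7.87-fold), H19 at 10.5 and 48.4 CPM (4.63-fold), Igf2 at 74.4 and 126 CPM (1.70-fold) and Cdkn1c at 24.1 and 293 CPM (12.1-fold). Of the Cdkn1c UMIs of that day, 10 cells held 34.6%. At day 21 Mest was 2.86-fold and H19 2.08-fold higher in Y-linked cells, while Cdkn1c stood at 0.58 (0.42 to 0.77) of its level in Xist cells. In the endothelial barcodes of day 7 the ratios of Mest and H19 were 1.07 and 0.67. Cdkn1c moved there as in satellite cells, 2.16-fold higher (1.81 to 2.61) in Y-linked barcodes at day 7 and at 0.42 of the Xist level at day 21.

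Satellite cell transcripts in endothelial barcodes also differed by kind of cell. At day 7 Pax7 stood at 3.79 CPM in barcodes with Xist only and 12.5 CPM in barcodes with Y-linked UMIs only, and Gal at 5.39 and 23.9 CPM. At day 21, when Xist cells were the majority, Pax7 stood at 15.6 and 3.23 CPM and Gal at 5.40 and 0.807 CPM.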
